A study of Drosophila melanogaster with 4 samples.

Results

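The G element is a family of non-LTR retrotransposons (LINEs) of Drosophila melanogaster, and its 24 to 29 nt small RNAs were followed in ovaries in which Ars2 or the control gene white was knocked down in the germline. Its members were the repeat names G_DM and G2_DM to G7_DM of the deposited repeat table, that is, G_DM or G with 1 digit. The rule found 7 of the 9263 repeat names and 776 of the 137555 annotated repeat copies. The similarly named G5A_DM was outside the rule and is given only for comparison.

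The libraries held small RNAs of 19 to 29 nt, cut from a gel, from ovary total RNA. The group called Ars2KD (2 libraries) carried a germline knockdown by the hairpin Ars2_sh1 (stock 106344 of the Vienna collection, VDRC), and the group called wKD (2 libraries) by the hairpin white_sh (stock 30033). White is an eye-colour gene, and wKD served as the control with a germline hairpin of its own. Hairpin and stock both differ between the groups, so the design does not separate them from the knockdown of Ars2. The sources used here give neither the driver of the hairpins nor the age of the flies. Separate flies are not stated for the libraries. Each p-value therefore reflects library-to-library spread alone, which may be technical.

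Non-LTR retrotransposons copy themselves through an RNA that is reverse-transcribed at the new insertion site, and the G element belongs to the jockey clade of these elements. In the ovary, Piwi-interacting RNAs (piRNAs) silence such elements, and germline piRNAs come largely from loci packed with broken transposon copies, called piRNA clusters. 2 known germline clusters are 38C on chromosome arm 2L and 42AB on 2R. Ars2 binds RNA and joins the complex that holds the cap of nuclear transcripts, and the series was made to study what it does to transposons and telomere repeats in germ cells. The reads were selected for the length range of most piRNAs but were not otherwise checked to be piRNAs.

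Over all repeats, Ars2KD 1 and 2 had 46218 and 169124 counts of 24 to 29 nt reads, and wKD 1 and 2 had 64395 and 323180. As a check of the tissue, the follicle cell miRNAs miR-318, miR-994 and miR-989 held 9.37% to 14.7% of miRNA counts in the 4 libraries. The maternal germline miRNA miR-184 held 12.0% and 47.6% in Ars2KD and 11.5% and 35.1% in wKD, so it separated the library numbers more than the groups. Repeat families dominated by follicle cell piRNAs (ZAM, Idefix, gypsy, gypsy5, gypsy10 and Tirant) held 3.58% and 2.98% of repeat counts in Ars2KD and 3.94% and 2.95% in wKD. Germline families (HeT-A, Burdock, Doc and I) together held less in both Ars2KD libraries, with 1.46% and 1.12% against 2.45% and 1.79%, but did not move as a set. HeT-A held 0.422% and 0.326% against 1.12% and 0.710%, and Doc 0.329% and 0.396% against 0.453% and 0.528%. Burdock went the other way, with 0.0649% and 0.0721% against 0.0544% and 0.0582%, and I overlapped between groups. The part of these families in the G element values was not tested.

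G element reads made up 4.23% of repeat counts in Ars2KD 1 (1957 counts, exact 95% interval 4.05% to 4.42%) and 4.62% in Ars2KD 2 (7806 counts, 4.52% to 4.72%). They made up 3.49% in wKD 1 (2247 counts, 3.35% to 3.63%) and 3.44% in wKD 2 (11106 counts, 3.37% to 3.50%). Both Ars2KD shares lay above both wKD shares, and these intervals cover counting error only. A share also moves with the counts of all other repeats, and on the normalised scale given below the groups overlapped. The exact permutation test gave a two-sided p of 0.333, which is the smallest that 2 against 2 libraries allow.

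The family was not evenly made up. G_DM held the largest part of G element counts in 3 libraries, with 35.5% and 32.7% in Ars2KD 1 and 2 and 32.3% in wKD 2, while in wKD 1 it held 26.3% and G6_DM 28.8%. G6_DM held 23.3% and 19.7% in Ars2KD and 25.3% in wKD 2. G2_DM held 16.1% and 31.7% in Ars2KD and 21.2% and 25.5% in wKD. Over the 4 libraries G4_DM held 6.25% to 14.4%, G5_DM 5.20% to 9.25%, G3_DM 0.423% to 3.42% and G7_DM 0.445% to 0.971%. G4_DM was above G5_DM except in Ars2KD 2, where G5_DM held 8.42% and G4_DM 6.25%.

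Levels of different repeat names can be compared only per length of annotated copies. That length includes copies on unplaced scaffolds, which had no counts and made up 97.8 of the family's 453 kb. The levels were not corrected for this, so the order of names may also depend on it. In wKD 1 and 2 the level of G6_DM was 164 and 181 CPM per kb, and that of G_DM was 132 and 204 CPM per kb (CPM is the count scaled to library size, here with TMM factors). These ranges overlapped, so the order of the leading names was not separated. Next came G4_DM at 74.1 and 65.0 CPM per kb and G2_DM at 47.4 and 71.6, which also overlapped. G7_DM stood at 34.3 and 47.8 CPM per kb and overlapped G2_DM, and G5_DM at 23.0 and 20.8 and G3_DM at 17.8 and 15.3 lay below it without overlap in either step. In Ars2KD 1 and 2 G_DM led with 215 and 254 CPM per kb, above G6_DM with 160 and 174. G3_DM there spread from 45.8 to 7.27 CPM per kb, a range that enclosed G5_DM at 35.5 and 41.6.

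**Figure D1:**
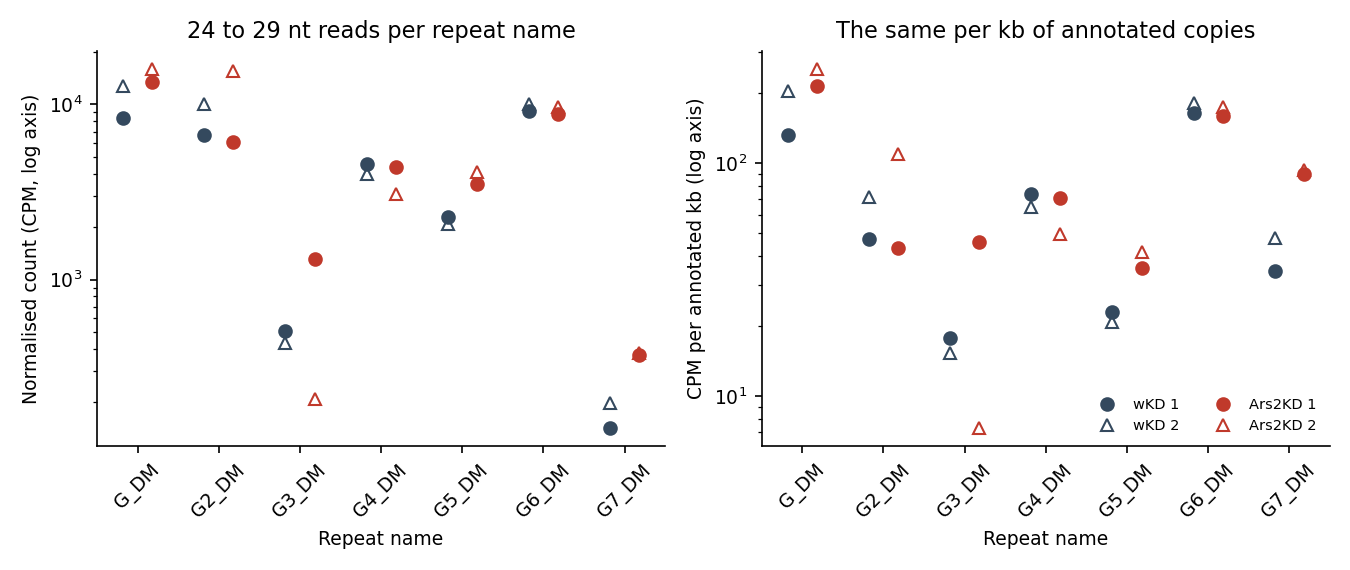
Normalised counts of 24 to 29 nt reads for the 7 G element repeat names in each library (left, CPM on a log axis) and the same per kb of annotated copies (right, log axis), with filled circles for number 1 and open triangles for number 2. For G_DM, G5_DM and G7_DM both Ars2KD libraries lie above both wKD libraries, and the Ars2KD libraries of G3_DM lie on both sides of wKD.

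The main comparison asked whether G element small RNAs differed between Ars2KD and wKD ovaries. No G element name passed the test, so none is called higher or lower. In bulk ovary RNA, a change in the share of cells and a change per cell cannot be told apart. Of all 226 repeat names tested, 0.442% (1 name) were called higher and 0% lower at an adjusted p under 0.05 by edgeR's quasi-likelihood test, against 0 of the 7 G element names in either direction. At an unadjusted p under 0.05, 1 of the 7 was higher (G5_DM) and 0 were lower, where all names gave 1.77% higher and 3.54% lower. DESeq2 and limma-voom also called 0 of the 7, each with 1 of the 7 at an unadjusted p under 0.05.

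The summed G element had 38090 and 48958 CPM in Ars2KD 1 and 2 and 31655 and 39701 CPM in wKD 1 and 2. The groups overlapped on this scale, because Ars2KD 1 lay below wKD 2. The Ars2KD mean was 43524 ± 7685 CPM and the wKD mean 35678 ± 5690 CPM (SD, n = 2), or 0.29 on the log2 scale (SE 0.34, edgeR adjusted p 0.997). Between the libraries numbered 1 the log2 ratio was 0.27 (exact 95% interval of the counts 0.18 to 0.36), and between those numbered 2 it was 0.30 (0.26 to 0.34).

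G5_DM had the lowest p of the family. Its level was 3523 and 4121 CPM in Ars2KD 1 and 2 (181 and 657 counts) and 2282 and 2063 CPM in wKD 1 and 2 (162 and 577 counts). The groups did not overlap, as was the case for 14.2% of all tested names in this direction. The means were 3822 ± 423 and 2172 ± 155 CPM (SD, n = 2), or 0.82 on the log2 scale (SE 0.29, edgeR unadjusted p 0.0227, adjusted p 0.641). Within numbers the log2 ratio was 0.63 (0.31 to 0.94) and 0.998 (0.83 to 1.16).

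G_DM and G7_DM were the other names whose groups did not overlap. G_DM had 13508 and 16006 CPM in Ars2KD and 8326 and 12830 CPM in wKD, or 0.48 on the log2 scale (SE 0.34, edgeR adjusted p 0.951). Without wKD 1 its value was 0.14, and without wKD 2 it was 0.85. G7_DM, the rarest name, had 19 and 61 counts in Ars2KD and 10 and 55 in wKD. Its levels of 370 and 383 CPM against 141 and 197 CPM gave a log2 ratio of 1.14 (SE of 0.64, edgeR adjusted p 0.951), and its few counts left a wide interval of 0.22 to 2.66 within number 1. G5A_DM, outside the rule, had 2978 and 1875 CPM against 1845 and 1219 CPM, or 0.66 on the log2 scale (SE 0.37, edgeR adjusted p 0.951).

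The remaining names overlapped between groups. G6_DM had 8875 and 9646 CPM in Ars2KD and 9129 and 10052 CPM in wKD, or -0.05 on the log2 scale (SE 0.29, edgeR adjusted p 0.991) that became 0.015 when scaled to the repeat table total. Without its most counted copy, which held 78.3% of its counts, it had 0.41. G4_DM had 4379 and 3061 against 4564 and 4007 CPM, or -0.21 on the log2 scale (SE 0.31). G2_DM had 6131 and 15535 against 6706 and 10116 CPM, or 0.37 on the log2 scale (SE 0.46), with -0.13 within number 1 and 0.62 within number 2. G3_DM had 1304 and 207 against 507 and 436 CPM, or 0.65 on the log2 scale (SE 0.76). Its ratio was 1.36 within number 1 and -1.08 within number 2, so Ars2KD 1 was the highest and Ars2KD 2 the lowest library, and without Ars2KD 1 it was -1.26. Leaving out Ars2KD 2 turned G2_DM to -0.43 and G4_DM to 0.066.

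**Figure D2:**
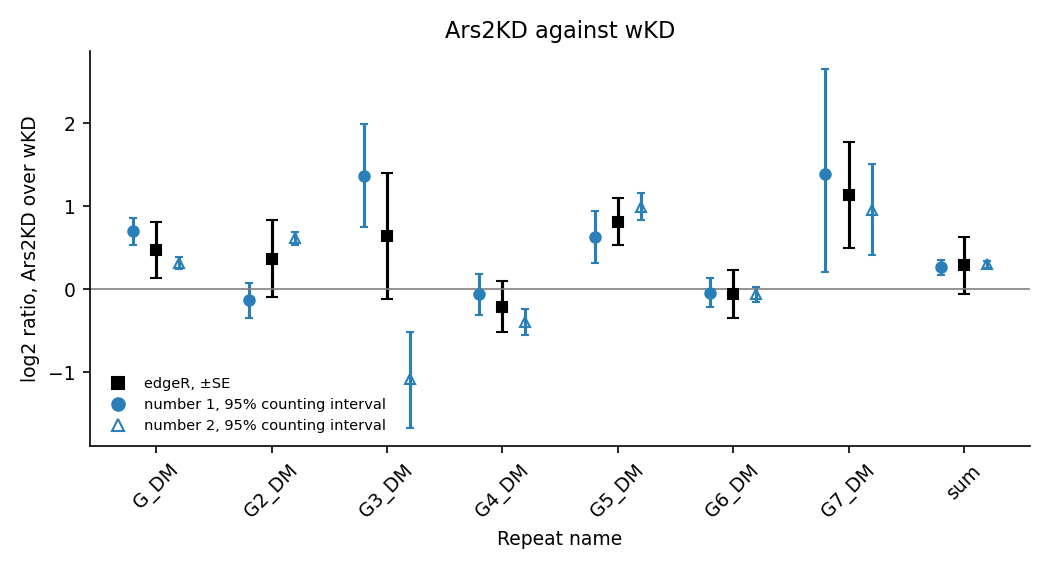
Log2 ratio of Ars2KD over wKD for each repeat name and for the sum, as the edgeR estimate with its SE (squares) and within number 1 and number 2 with exact 95% intervals of the counts (circles and triangles). The 2 numbers point the same way for G_DM, G4_DM, G5_DM, G6_DM, G7_DM and the sum, and opposite ways for G2_DM and G3_DM.

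The family's reads came from a small number of its copies. Of the 776 copies, 296 had a count in any library, and 10 copies held 65.3% of the 23116 counts. Copies were mostly fragments, with a median length of 326.5 bp and 9 of 776 longer than 4 kb. All 167 copies on unplaced scaffolds were listed at 0, as were all 8207 repeat copies there, so 296 of 609 placed copies were counted. Among counted copies, Spearman's rho between length and counts was 0.34 across copies, which are not independent and may share reads. How reads with several positions were counted is unknown from the sources at hand, and a read may stand at another copy than its source. Of the 64 copies on the Y chromosome, which females do not carry, 18 had counts, 14 and 68 in Ars2KD and 37 and 163 in wKD.

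Most counts lay in the centromere-proximal 5 Mb of the arms of chromosomes 2, 3 and X, largely through the 38C cluster. These proximal copies were 61.2% of all copies, 62.7% of their length and 90.4% of their counts. Unplaced copies, which had no counts, are part of those totals. Of the 609 placed copies (355 kb), 475 (284 kb) were proximal. Copies in 38C held 12733 of the 20902 proximal counts on 12.2 kb. Chromosome arm 2L held 55 copies and 57.7% of the counts. The arms 3L, 2R, X and 3R held 12.2%, 11.4%, 9.74% and 7.68%, and the Y held 1.22%. By annotation, 80.5% of counts lay between genes and 19.4% in introns. The intronic copies had 9946 and 9966 CPM in Ars2KD and 5959 and 7003 CPM in wKD, and the copies on 3R had 4944 and 4052 against 2508 and 2495 CPM. In both sets the groups did not overlap. The same held on 3L (5586 and 5607 against 4142 and 4808 CPM). It also held outside the piRNA cluster windows (17322 and 18402 against 11636 and 14785 CPM). On 2L, 2R and X the groups overlapped. Of all single repeat copies tested, 16.9% lay apart on the higher side. That share is not a like background for sums over many copies. Sums of all repeats over the same regions are not given, so a shift particular to the G element is not shown. None of these sets was tested on its own. The Y copies had 272 and 426 CPM in Ars2KD, below 521 and 583 CPM in wKD. All repeat copies on the Y likewise had 2803 and 3374 CPM in Ars2KD, below 3381 and 3829 CPM in wKD.

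The 38C piRNA cluster was the main site of G element reads. It held 16 of the 776 copies and 2.69% of their annotated length, but 45.8% of G element counts in Ars2KD 1 and 58.0% in Ars2KD 2, against 53.1% in wKD 1 and 55.1% in wKD 2. Groups overlapped in this share (exact permutation test, two-sided p of 1). The window's boundaries follow common usage, rounded outward to 10 kb, and its G element copies lay at 2L:20104936-20220048 (dm6). G element copies in turn took 47.3% and 58.8% of all 38C repeat counts in Ars2KD and 47.3% and 49.96% in wKD, on 14.7% of the annotated repeat length there. The cluster 42AB held 4 copies and 6.88% of the counts, and the follicle cell cluster flamenco held 3 copies and 7 counts, or 0.0303%.

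The names differed in how far they relied on these clusters. Of G2_DM counts 86.1% lay in 38C, of G6_DM counts 78.3%, of G_DM counts 38.5% and of G5_DM counts 22.4%, summed over the 4 libraries. For G5_DM the libraries differed, with 10.5% in Ars2KD 1, 33.0% in Ars2KD 2, 18.5% in wKD 1 and 15.1% in wKD 2. G3_DM, G4_DM and G7_DM had 0% there, and 71.6% of G4_DM counts lay in 42AB instead. All G4_DM copies in 42AB lay within an annotated FlyBase insertion of 1360, a DNA transposon. The 2 most counted G2_DM copies, with 38.2% and 18.9% of its counts, lay within one named H (hobo, also a DNA transposon). The 2 annotations thus name different elements there, and which is right was not tested. Outside 38C the level of G2_DM was 9.69 and 12.1 CPM per kb in wKD and 8.23 and 11.9 in Ars2KD. That was below G_DM outside 38C, at 87.0 and 126 CPM per kb in wKD and 141 and 163 in Ars2KD.

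**Figure D3:**
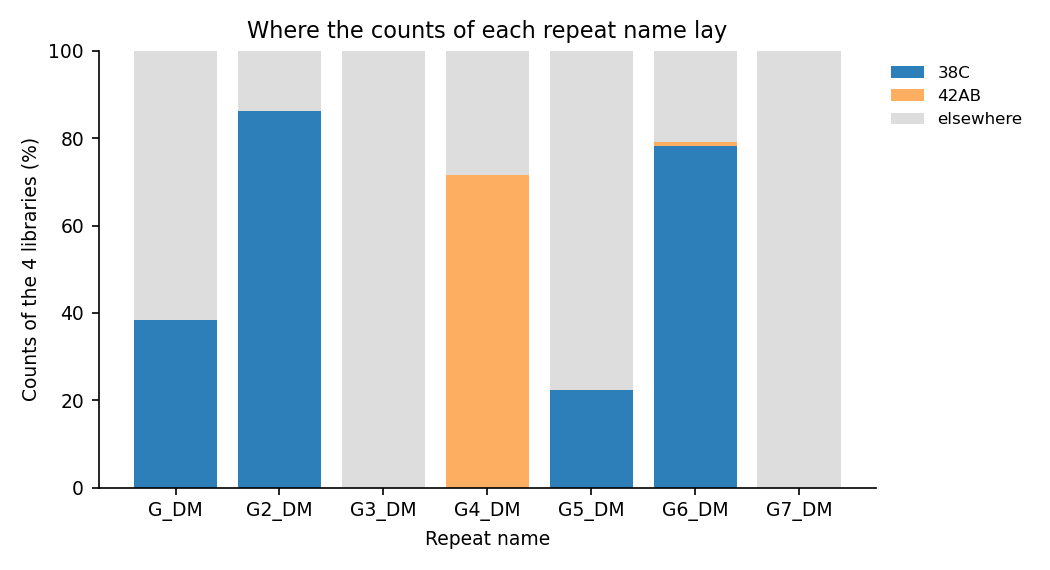
Share of the counts of each G element repeat name, summed over the 4 libraries, that lay in the 38C window, in the 42AB window or elsewhere. G2_DM and G6_DM lay mainly in 38C (86.1% and 78.3%), G4_DM mainly in 42AB (71.6%), and G3_DM and G7_DM in neither.

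Within 38C the counted copies formed 3 groups more than 10 kb apart. The first, at 2L:20104936-20112416, held 5 copies of G_DM, G6_DM, G2_DM and G5_DM and 26.8% of all G element counts. It stood at 9576 and 12073 CPM in Ars2KD and 10678 and 10796 CPM in wKD, and the groups overlapped. The second, at 2L:20150149-20152810, held 3 copies of G_DM and G2_DM and 11.1%, and the last, at 2L:20206183-20220048, held 7 copies of G2_DM and 17.2%. The last group was uneven between libraries, at 3542 and 11659 CPM in Ars2KD and 3395 and 6045 CPM in wKD, with both libraries numbered 2 above both numbered 1. A G4_DM stretch of 31 bp in between had no count. Of the 16 copies, 11 lay in FlyBase insertions named for a G element, 7 on the minus and 4 on the plus strand, 4 lay in an insertion named H (hobo, a DNA transposon), and 1 had no insertion. The sources used here give no read strand.

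The most counted copy was a G6_DM fragment of 1146 bp in 38C (2L:20105437-20106582, between genes, 1287 bp from CG13970). It had 366 and 1120 counts in Ars2KD and 565 and 2219 in wKD and held 18.5% of all G element counts and 78.3% of those of G6_DM. Its level was 7124 and 7024 CPM against 7959 and 7932 CPM. Both Ars2KD libraries lay below both wKD libraries by little, or -0.17 on the log2 scale (SE 0.42, edgeR adjusted p 0.998). A G_DM fragment beside it (2L:20104936-20105422) had 85 and 550 counts against 103 and 600, or 0.51 on the log2 scale (SE 0.56).

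The second most counted copy was a G2_DM fragment of 535 bp (2L:20207126-20207660), inside the H insertion. It had 66 and 1225 counts in Ars2KD and 76 and 963 in wKD. Both libraries numbered 2, at 7683 and 3442 CPM, were above both numbered 1, at 1285 and 1071 CPM, so the number separated them more than the knockdown did. Its log2 ratio was 1.01 (SE of 0.88, edgeR adjusted p 0.998). It touches the G2_DM fragments on either side of it, at 2L:20206502-20207126 (84 and 414 against 146 and 509 counts) and 2L:20207635-20208940 (26 and 204 against 12 and 203). Reads in their shared bases could have been assigned to either copy.

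In the second group of 38C, a G_DM fragment (2L:20150149-20151411) had 167 and 412 counts in Ars2KD and 110 and 832 in wKD, or 0.37 on the log2 scale (SE 0.52). The adjoining G2_DM fragment (2L:20151484-20152810) had 31 and 287 against 53 and 495 counts, or -0.05 on the log2 scale (SE 0.71). Both overlapped between groups. A G5_DM fragment of 282 bp (2L:20112135-20112416), chosen after its values were seen, had 19 and 217 counts against 30 and 87. Ars2KD 2 alone was high there, and the log2 ratio was 1.26 (SE 0.74).

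**Figure D4:**
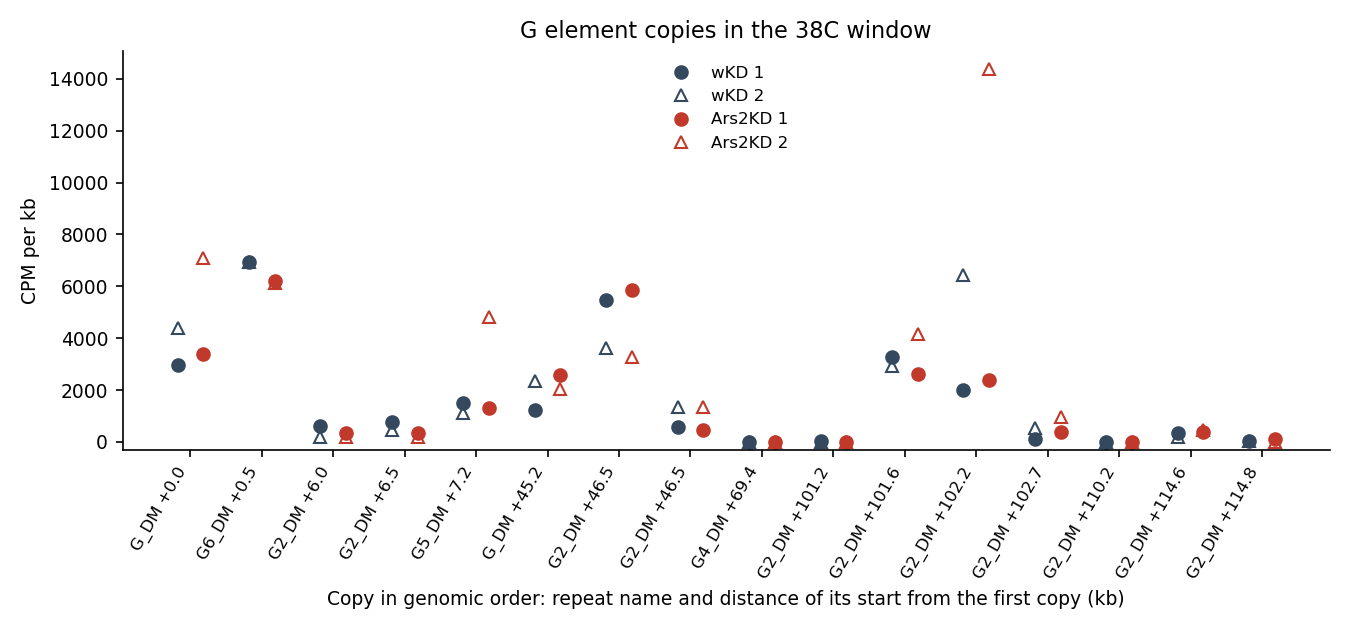
Level of each of the 16 G element copies in the 38C window, in CPM per kb of the copy, for each library, with copies in genomic order and the distance of each start from the first copy in kb. The leading G6_DM copy has closely spaced libraries, and the most counted G2_DM copy, in the last group, has Ars2KD 2 far above the others.

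Outside 38C, the most counted copy was a G_DM fragment of 2836 bp in an intron of Snap25, a gene for a SNARE protein of synaptic vesicle fusion (3L:24124740-24127575). It had 135 and 479 counts in Ars2KD and 132 and 739 in wKD, at 2628 and 3004 against 1860 and 2642 CPM, and its log2 ratio was 0.33 (SE 0.48). A G6_DM fragment just before it (3L:24124229-24124736), chosen after its values were seen, had 30 and 111 against 27 and 145 counts. A long G_DM copy of 4127 bp lay at X:22399791-22403917, with 40 and 196 against 32 and 282 counts and a log2 ratio of 0.47 (SE 0.63). In 42AB, a G4_DM copy (2R:6466950-6469062) inside an annotated insertion of 1360, a DNA transposon, had 125 and 275 against 151 and 578 counts. It held 52.3% of G4_DM counts at a log2 ratio of -0.01 (SE 0.49).

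Only 59 of the 776 copies passed the filter on low counts, which favours copies high in either group. Of these 59, 0 were called higher and 0 lower by edgeR (adjusted p 0.998), against 0.0607% higher and 0% lower of all 1647 repeat copies tested. At an unadjusted p under 0.05 the 59 also gave 0, where all copies gave 2.13% higher and 2% lower. DESeq2 called 0 of the 59 with 0 at an unadjusted p under 0.05, and limma-voom called 0 with 8. Log2 ratios were above 0 for 42 of the 59, with a median of 0.38, against 49.2% and a median of -0.01 over all copies tested. Groups did not overlap for 16 copies on the higher side and 6 on the lower, where 16.9% of all copies lay on each side. Copies share sequence and may share reads, so they are not replicates.

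By name, 17 of 18 tested G_DM copies and 8 of 8 tested G5_DM copies had a log2 ratio above 0. Among G2_DM copies 5 of 13 did, and among G4_DM copies 3 of 7. The highest ratios were at a G6_DM copy (2R:1282430-1283309; 7 and 15 against 3 and 8 counts) with 1.71 (SE 1.12), a G4_DM copy near CkIIalpha (3L:23106133-23107106; 8 and 41 against 7 and 11) with 1.69 (SE 0.83), and a G7_DM copy in an intron of dpr21 (2R:3129428-3129875; 4 and 20 against 1 and 13) with 1.63 (SE 1.23). The lowest were at a G2_DM copy of 38C (2L:20111425-20112127; 13 and 22 against 39 and 88) with -1.17 (SE 0.71), a Y-linked G2_DM copy (Y:1421922-1424058; 9 and 23 against 21 and 84) with -0.91 (SE 0.67), and a G4_DM copy of 42AB (2R:6463858-6464955; 33 and 53 against 67 and 230) with -0.87 (SE 0.61). These 6 copies were chosen for their extreme ratios, so the lack of overlap between groups there adds no support. Of all repeat copies tested, 16.9% lay apart on each side. None of the 6 passed edgeR (adjusted p 0.998).

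The copies behind G5_DM were spread more widely than those of the other main names. Its 3 most counted copies held 38.9% of its counts, against 58.5% for G_DM, 71.3% for G2_DM, 74.2% for G4_DM and 86.9% for G6_DM. One of these, in an intron of the myosin gene Myo81F (3R:1428823-1431068) and chosen after its values were seen, had 33 and 63 counts in Ars2KD and 21 and 43 in wKD. Its levels of 642 and 395 CPM lay above 296 and 154 CPM, or 1.21 on the log2 scale (SE 0.68, edgeR adjusted p 0.998). Outside 38C, G5_DM had a log2 ratio of 0.71 (edgeR unadjusted p 0.0433, adjusted p 0.821). G3_DM rested on few reads, and its longest and most counted copy (3L:24866407-24870601), chosen after its values were seen, had 12 and 3 counts against 9 and 35.

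**Figure D5:**
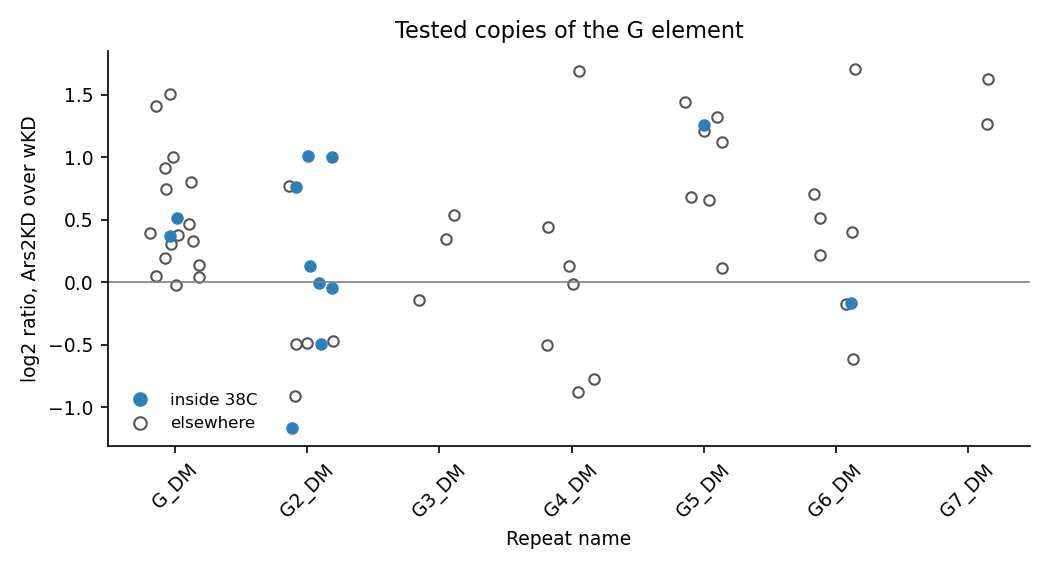
Log2 ratio of Ars2KD over wKD for the 59 G element copies that passed the filter on low counts, by repeat name, with filled points inside the 38C window and open points elsewhere. The 8 G5_DM copies and 17 of 18 G_DM copies lie above 0, and G2_DM and G4_DM copies lie on both sides.

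Splitting the family by position gave edgeR log2 ratios of the same sign inside and outside 38C. The summed copies in 38C had 17439 and 28380 CPM in the Ars2KD libraries against 16806 and 21874 CPM, a log2 ratio of 0.26 (edgeR unadjusted p 0.492). Within number 1 their log2 ratio was 0.05 (-0.07 to 0.18), and within number 2 it was 0.38 (0.32 to 0.43). The higher value in 38C thus rested mainly on Ars2KD 2. All other repeats of the window had 19444 and 19919 against 18694 and 21910 CPM, with log2 ratios of 0.06 and -0.14 within numbers. Copies outside 38C had a log2 ratio of 0.33 (edgeR adjusted p 0.991). The copies outside the centromere-proximal windows, with those on chromosome 4, the Y and unplaced scaffolds, together had -0.15 (edgeR adjusted p 0.997), so the direction turned there. The copies distal on the main arms had log2 ratios of 0.09 and -0.35 within numbers 1 and 2. By this cut the cluster 42AB counts as distal, and it held 1590 of the 1917 distal counts. Its G element copies had log2 ratios of 0.05 and -0.48 within numbers 1 and 2. All repeat copies in 42AB had -0.36 and -0.53, so the distal value was mostly that of 1 cluster.

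Other jockey-clade LINEs are set beside the G element as a description, with no test of the difference in position. Over the 4 libraries 55.1% of its counts lay in 38C, against 10.8% for BS elements, 0.190% for jockey (LINEJ1_DM) and 0% for the Doc and F elements. BS2 alone had 16.8% there. The repeat name HELENA_RT, outside the listed names, had 29.5% there, so a large share in 38C was not particular to the G element. Of BS element counts, 20.3% lay in 42AB in Ars2KD 1 and 27.1% in wKD 1, against 56.0% in Ars2KD 2 and 61.4% in wKD 2. Per kb of copies, the G element had 69.9 and 87.6 CPM in wKD, the Doc and F elements 14.8 and 19.98, and BS elements 86.1 and 210.0. These lengths include any unplaced copies, which had no counts. Of the 23 other jockey-clade names listed, 20 were in the table and 17 were tested. Of these, 1 was higher (jockey, log2 ratio 2.46, SE 0.29, edgeR adjusted p 0.0117) and 0 were lower. 8 of the 17 were above 0, with a median of -0.03 against -0.03 over all names, down to HeT-A, a telomeric retrotransposon, at -1.34 (SE 0.29, adjusted p 0.158).

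The repeat names whose pattern over the 4 libraries was most like the summed G element were sought among 206 others with a mean of at least 100 CPM. Likeness was the Euclidean distance between mean-centred log2 CPM values. The nearest were the internal part of Burdock, a germline LTR element, and BS2, each at a distance of 0.0947. The simple repeat (GT)n at 0.178, the LINE Baggins1 at 0.178 and the internal part of DIVER2 at 0.221 followed, against a median of 0.955. BS2 had 13118 and 16338 CPM in Ars2KD and 10791 and 14478 CPM in wKD.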

How the data were processed

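Small RNAs of 2 Ars2KD and 2 wKD ovary libraries were counted by the authors. The deposited tables hold raw counts per mature miRNA locus and, per the file headers, raw counts of 24 to 29 nt reads per repeat copy. Per the submitters' processing notes, the tools were Trimmomatic, FastQC, featureCounts and Bowtie2, on dm6. Their versions and settings, and the handling of strand and of multi-mapped reads, are not given in the sources used here. Table columns not used: 0.

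Counts were summed per repeat name, and again with the 7 G element names as 1 row, and tested over the whole table with edgeR 4.0.16 (R 4.3.3; quasi-likelihood test, TMM, filterByExpr, no replicate block, Benjamini-Hochberg adjustment, threshold 0.05). Single copies were tested likewise. Printed CPM use the TMM factors of the repeat-name test, 1.11 and 0.943 for Ars2KD and 1.10 and 0.866 for wKD. The SE comes from the fitted information and quasi-dispersion. The test was checked on simulated data. A floor of 3 counts per library was not enforced on the ratios, and the G7_DM copy in dpr21 is given with 1 count in wKD 1. No fold against 0 is given. Alternatives included DESeq2 1.42.0 and limma 3.58.1. Genes and insertions come from Ensembl BDGP6, the same assembly as dm6, and an insertion was assigned where it covered at least 50% of a copy. Libraries of a group differed far beyond sampling noise, so each was kept as its own sample.

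The members, lists and comparisons were chosen with earlier results of these data known. Named copies were the 10 most counted, the 3 highest and 3 lowest ratios, and any past the threshold. Any other named copy is marked in the text as chosen from its values. In 38C, every copy is plotted. Likeness used a pseudocount of 0.5 CPM. The copies' sequences were not used here.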

Additional observations from a re-analysis of the deposited data

How the results depend on the processing

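Of 131 alternative log2 ratios of the 7 names and their sum, 118 kept their direction and their side of the threshold, 12 turned direction, and the cause was not tested. G2_DM turned to -0.37 without copies that overlap another, to -0.75 over all copies outside the centromere-proximal windows (distal, chromosome 4, Y and unplaced), and to -0.11 outside 38C (a split added after seeing the data). G3_DM turned to -0.42 with limma-voom. G6_DM turned to 0.015 with scaling to the repeat table total, and to 0.41 both without its most counted copy and outside 38C. The sum turned to -0.15 over the same copies outside those windows. Leaving out each library in turn gave -0.43 to 0.80 for G2_DM, -1.26 to 1.504 for G3_DM, -0.57 to 0.066 for G4_DM, -0.18 to 0.049 for G6_DM, 0.73 to 0.84 for G5_DM, 0.14 to 0.85 for G_DM, 0.87 to 1.44 for G7_DM and 0.10 to 0.51 for the sum. A library left alone in its group was assumed to vary like the other group.

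The libraries share only a number, with 2 pairs. Deviations of same-numbered libraries correlated at 0.712 over 226 names and 0.612 over 1647 copies. With the number as a replicate block, G5_DM had a log2 ratio of 0.83 at an edgeR adjusted p of 0.00308, against a range of 0.00308 to 0.999 over its alternatives, and the sum had 0.29 at 0.248. The block called 8 names higher and 12 lower in place of 1 and 0. DESeq2 called 2 higher and 1 lower, scaling to the total of both tables called 0 higher, and leaving out 1 library called 0 to 2 higher and 0 to 1 lower. G element copies called stayed at 0 under every setting run, although 12 had an unadjusted p under 0.05 with the block and 8 with limma-voom. G3_DM, G4_DM and G7_DM gave no value inside 38C, and G_DM, G3_DM and G7_DM gave none outside the centromere-proximal windows. Depth limits the rare names, since G7_DM had 10 to 61 counts per library.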
